A study of Mus musculus with 18 samples.

Results

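Homologous recombination and Fanconi repair genes were followed in irradiated skin and skin tumours of the mouse, as a set of 40 genes chosen by name. All 40 listed symbols were found among the 14521 named genes of the deposited table. They were listed by name and not by a cutoff on measured values, although earlier results of these data were known. The set held the BRCA1 and BRCA2 complexes, cofactors of strand exchange, the complexes of Rad51b, Rad51c, Rad51d, Xrcc2 and Xrcc3, the Fanconi core and its substrate, helicases, resection enzymes, checkpoint kinases and nucleases.

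Homologous recombination mends a DNA break by copying the intact sister chromatid. The broken ends are first trimmed by resection, and with the help of BRCA2 the exposed strand then pairs with the matching sequence. The Fanconi pathway acts where the strands of a helix are crosslinked: a multi-protein ubiquitin ligase, the core complex, marks the FANCD2-FANCI pair, which brings nucleases and recombination proteins to the lesion. Many of these genes are transcribed mainly in S and G2 phase, when a sister chromatid is present.

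The samples came from 6 female littermates of SKH-1E, an outbred hairless strain. Every mouse had received chronic solar-simulated ultraviolet radiation, so each group, the comparison tissue included, was irradiated, and skin of unirradiated mice was not analysed here. From each mouse (2, 3, 7, 8, 9 and 10) there was 1 library of non-lesional, chronically exposed skin (CHR), 1 of a papilloma (PAP), a benign epidermal outgrowth, and 1 of a cutaneous squamous cell carcinoma (SCC), so that there were 18 libraries and n = 6 per group. Total RNA of whole tissue pieces was sequenced, tumours of the highest grade were not taken, and the age of the mice is not in the labels.

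Library depth, recovered from the deposited values, was 15.4 to 21.0 M reads (median 18.9). The tissue mix differed between groups: of 8 skeletal muscle markers 8 were lower in PAP than in CHR and 7 in SCC, and their summed normalised reads ranged from 379237 to 570066 in CHR, from 303 to 28385 in PAP and from 409 to 189253 in SCC. The highest PAP value belonged to mouse 2 and the lowest SCC value to mouse 10. All 6 T cell, all 6 myeloid and all 6 sebaceous markers were lower in PAP, and 5, 5 and 6 of them were lower in SCC. Of 8 keratinocyte markers 5 were higher and 1 was lower in PAP, and 3 were higher and 2 lower in SCC, with mean sums of 544402 (CHR), 849127 (PAP) and 511173 (SCC). Adipocyte markers were lower for 5 of 6 in each lesion, and fibroblast markers for 4 of 6 in PAP and 1 of 6 in SCC. No marker gene was at 0 throughout a group. In bulk tissue, fewer cells of a type and less RNA per cell cannot be told apart, and the part of the tissue mix in the results on the repair genes was not tested.

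The promoters of the 2 genes with the largest rise in PAP on the log2(deposited value + 1) scale and of the only called fall are shown, because many replication-linked genes carry binding letters for E2F or for NF-Y, the factor that binds CCAAT boxes. Of the 40 genes, 31 had an entry among the RefSeq promoters of build GRCm38.p6 (250 bases before and 50 bases after the start). Capitals mark CCAAT, read here as ATTGG on the gene's strand, and an E2F core of the letters TTCCCGCC, read here as GGCGGGAA. The core was added after these sequences had been seen. The sequences run 5′ to 3′ on the gene's own strand. Chek1, the kinase activated by ATR, is at chr9:36726609-36726908 (minus strand), Rad51ap1, which stimulates strand exchange, at chr6:126939538-126939837 (minus strand), and Fancc, a core complex subunit, at chr13:63431696-63431995 (minus strand).
Chek1: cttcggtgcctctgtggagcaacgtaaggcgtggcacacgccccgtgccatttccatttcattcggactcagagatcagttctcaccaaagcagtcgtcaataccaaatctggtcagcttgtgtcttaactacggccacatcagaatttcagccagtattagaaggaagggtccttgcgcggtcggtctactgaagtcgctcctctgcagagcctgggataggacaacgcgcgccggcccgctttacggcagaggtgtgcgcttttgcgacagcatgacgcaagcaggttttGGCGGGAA
Rad51ap1: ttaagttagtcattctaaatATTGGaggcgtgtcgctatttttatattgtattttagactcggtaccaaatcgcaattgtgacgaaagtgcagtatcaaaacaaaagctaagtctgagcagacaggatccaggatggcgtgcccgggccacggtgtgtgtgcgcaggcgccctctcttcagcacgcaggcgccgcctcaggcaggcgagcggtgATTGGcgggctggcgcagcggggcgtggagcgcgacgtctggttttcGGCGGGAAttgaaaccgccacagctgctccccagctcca
Fancc: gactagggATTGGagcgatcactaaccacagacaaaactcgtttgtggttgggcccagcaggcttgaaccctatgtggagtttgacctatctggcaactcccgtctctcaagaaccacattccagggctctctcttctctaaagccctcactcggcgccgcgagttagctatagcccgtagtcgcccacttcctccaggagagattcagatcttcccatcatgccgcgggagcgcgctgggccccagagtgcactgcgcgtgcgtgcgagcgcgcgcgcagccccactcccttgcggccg
Counted from 1 at the start, the core began at position 43 in Chek1 and at position 12 in Rad51ap1, and CCAAT letters began at positions -230 and -36 in Rad51ap1 and at -242 in Fancc. The RefSeq start of Fancc lies inside the widest extent that GENCODE M21 gives the gene.

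Over both strands of the 300-base window, the E2F core was present in 5 of 31 genes (16.1%) and in 4.35% of 10745 promoters of measured genes. Chek1 and Rad51ap1, from which the core was taken, are 2 of the 5, and in the 250 bases before the start it was in 2 of 31 (6.45%) and in 3.79% of all. A separate set of E2F letters (TTTCCCGC, TTTGGCGC, TTTCGCGC and TTTGCCGC) was present in 6 of 31 (19.4%), namely Bard1, Brca2, Rad51c, Fancg, Rmi1 and Chek2, and in 4.23% of all, and in the 250 bases in 4 of 31 (12.9%) and 3.56% of all. CCAAT was present in 20 of 31 (64.5%) and in 42.0% of all. The GC box GGGCGG was held by 18 of 31 (58.1%) and by 65.0% of all, and TTTGAA or TTCGAA by 4 of 31 (12.9%) and by 16.5% of all. Within the set, the separate E2F letters were found in 4 of 21 genes that were higher in PAP and in 2 of 10 that were not called. CCAAT was found in 13 of those 21 and in 7 of those 10, the GC box in 12 and 6, the E2F core in 4 and 1, and TTTGAA or TTCGAA in 4 and 0. These are descriptions of letters in a window, and no test was made on them.

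The first comparison asks which of these genes differed between papilloma and the irradiated skin around it. Of 40 genes, 28 were higher in PAP than in CHR and 0 were lower (limma with Benjamini-Hochberg adjustment over all genes, adjusted p under 0.05, n = 6 per group). Among all genes tested, 22.8% were higher and 28.7% were lower, 51.5% in either direction. At an unadjusted p under 0.05 the same fit called 30, all of them higher, beside 57.2% of all genes in either direction. limma-voom called 27 higher and 0 lower, beside 22.1% and 28.3% of all genes. The median log2 fold change was 0.57 over the 40 genes and 0.00 over all genes, and 34 of the 40 values were positive and 6 negative, where 49.9% of all genes were negative. In 23 genes every PAP library was above every CHR library, beside 14.4% of all genes, and in 0 genes was every PAP library below, beside 19.2%.

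In carcinoma, 23 of 40 genes were higher than in CHR and 1, Fancc, was lower, where 15.1% of all genes were higher and 21.4% lower, 36.5% in either direction. The median log2 fold change was 0.39, beside -0.02 over all genes, and 8 of the 40 values were negative, beside 51.8% of all genes. Every SCC library was above every CHR library in 19 genes, beside 8.49% of all genes, and below in 0, beside 11.2%. The comparisons of PAP and of SCC with CHR share the CHR libraries, so their values are set side by side and are not separate evidence. Without mouse 2, whose papilloma held the most muscle RNA, 28 genes were higher in PAP and 23 in SCC, and without mouse 10, whose carcinoma held the least, 26 and 20. In the remaining mice CHR still held more muscle RNA than either lesion. These counts therefore do not bear on the tissue mix, whose part was not tested. Called higher in PAP but not in SCC were Rad51b, Rad50, Nbn, Rbbp8 and Mus81, and the remaining 23 genes of the PAP list were higher in both.

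**Figure D1:**
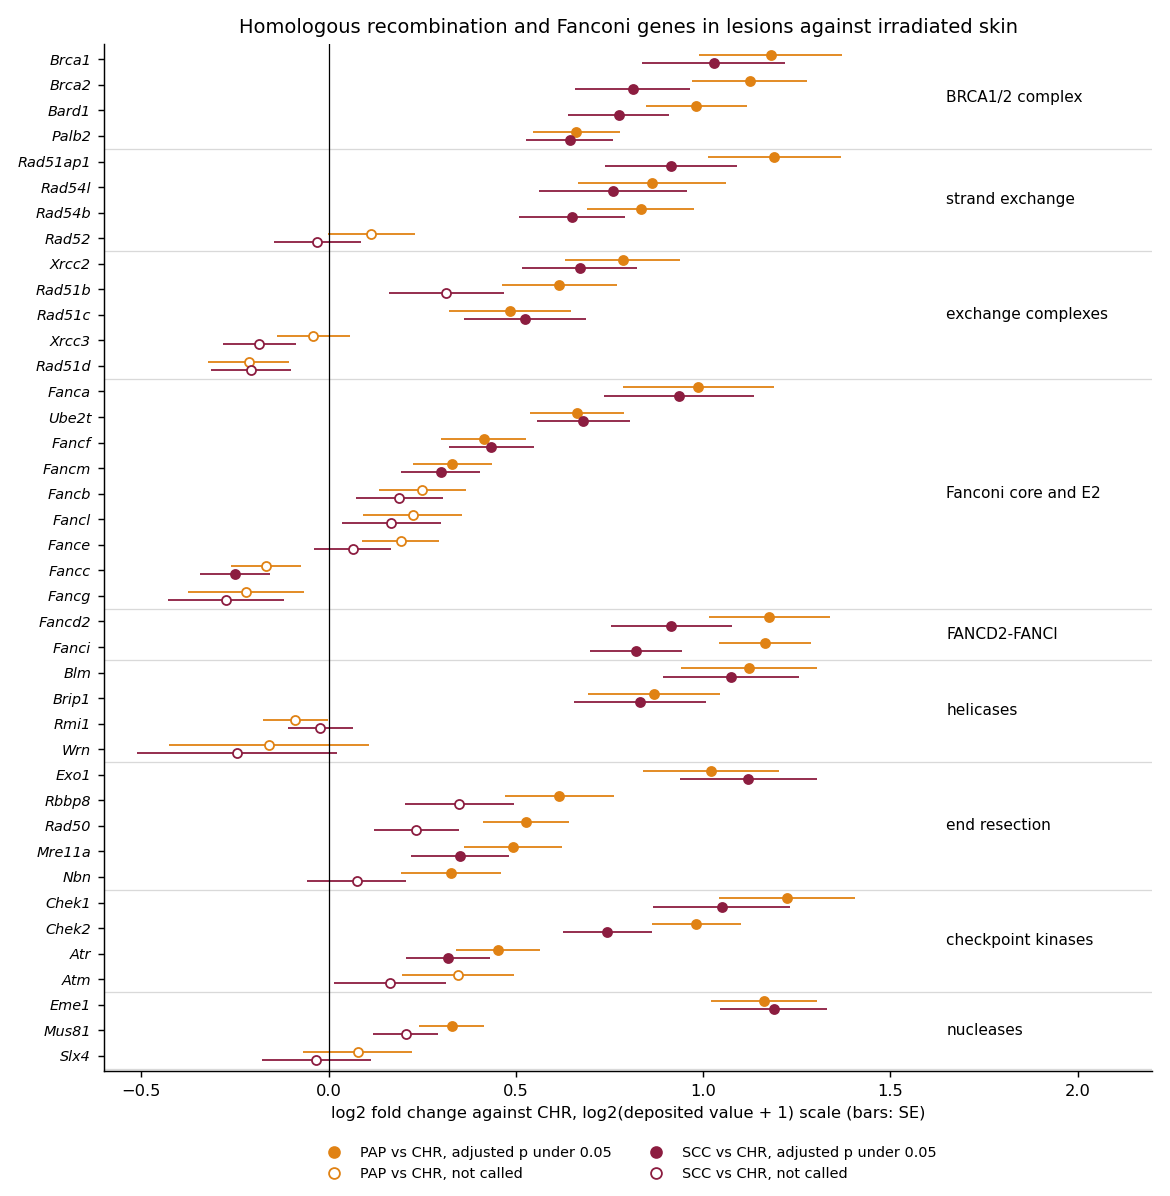
Log2 fold change of each of the 40 genes in PAP (orange) and SCC (dark red) against CHR on the log2(deposited value + 1) scale, grouped by role, with SE bars and filled points for adjusted p under 0.05. The BRCA, FANCD2-FANCI and resection groups were filled for PAP throughout, while PAP values of the Fanconi core spread from -0.22 (Fancg) to 0.99 (Fanca).

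All 4 genes of the BRCA complexes rose in both lesions. Brca1 (chr11:101488764-101551955, minus strand), which with Bard1 forms a ubiquitin ligase that favours resection, had 396 reads in the lowest, 407 in the median and 533 in the highest CHR library (normalised reads, as for all levels per library). In PAP its lowest, median and highest libraries were 786, 1074 and 1664, and in SCC they were 720, 873 and 1508. Both lesions lay wholly above CHR and overlapped each other. The log2 fold change was 1.18 ± 0.19 (SE) in PAP (adjusted p = 6.61e-05) and 1.03 ± 0.19 in SCC (adjusted p = 0.000511). On plain reads, which the deposited scale compresses, the ratio of means was 2.56 in PAP and 2.29 in SCC.

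Brca2 (chr5:150522630-150570329, plus strand), which readies the exposed strand for pairing, ranged from 482 through a median of 676 to 804 in CHR. It ranged from 1077 through 1490 to 2280 in PAP and from 1029 through 1151 to 1512 in SCC. No library of either lesion reached down to CHR, and the highest PAP library was that of mouse 2. Its log2 fold change was 1.12 ± 0.15 in PAP (adjusted p = 1.17e-05) and 0.81 ± 0.15 in SCC (adjusted p = 0.000587). Bard1 rose by 0.98 and 0.78 on the same scale. Palb2, which bridges BRCA1 and BRCA2, rose by 0.66 and 0.64.

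Of the cofactors of strand exchange, 3 of 4 rose. Rad51ap1 had 73.6, 106 and 136 reads in the lowest, median and highest CHR libraries. The same values were 195, 324 and 507 in PAP and 202, 240 and 383 in SCC. Both lesions were above CHR without overlap. The log2 fold change was 1.19 ± 0.18 in PAP (adjusted p = 2.74e-05) and 0.91 ± 0.18 in SCC (adjusted p = 0.00072), and the ratio of mean reads was 3.19 in PAP. The motor protein gene Rad54l rose by 0.86 in PAP and 0.76 in SCC, and its paralog Rad54b by 0.83 and 0.65. Rad54l was higher in PAP in 5 of 6 mice: the PAP of mouse 2 had 135 reads and its CHR 158, while the other PAP libraries had 268 to 320. Rad54l was looked at per library after its values were seen. Rad52, an annealing protein that in mammals is not needed for most recombination, had a log2 fold change of 0.11 in PAP (adjusted p = 0.431) and -0.03 in SCC (adjusted p = 0.866).

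Rad51b, Rad51c, Rad51d, Xrcc2 and Xrcc3, whose products form complexes that assist strand exchange, were not of a kind. Xrcc2 rose by 0.79 in PAP (adjusted p = 0.000381) and 0.67 in SCC (adjusted p = 0.00259). Rad51c rose by 0.48 in PAP (adjusted p = 0.0187) and 0.52 in SCC (adjusted p = 0.0177), and Rad51b by 0.62 in PAP (adjusted p = 0.00286), with 0.32 in SCC (adjusted p = 0.116). Rad51c lost its call in PAP without mouse 7 (adjusted p = 0.0526) or mouse 10 (0.0909), and in SCC without mouse 3 (0.0533) or mouse 10 (0.0631). Rad51d and Xrcc3 passed in neither comparison. Rad51d had a log2 fold change of -0.21 in PAP (adjusted p = 0.106, lower in 5 of 6 mice), and without mouse 10, whose CHR library was the lowest of its group, it was called lower (adjusted p = 0.0371).

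The Fanconi core was mixed: 4 of 9 genes were higher in each lesion, and 1 was lower in SCC. Fanca, a core subunit, rose by 0.99 in PAP and 0.94 in SCC. Ube2t, the enzyme that supplies ubiquitin to the core, rose by 0.66 and 0.68, or 2.54-fold and 2.59-fold in mean reads. Ube2t had the fewest reads of the set in CHR, 34.3 ± 5.41, but not in the lesions. There it had 87.0 ± 23.6 in PAP and 88.7 ± 22.8 in SCC (SD, n = 6). Fancf rose by 0.41 and 0.43, and Fancm, the DNA translocase that anchors the core, by 0.33 and 0.30. Fancm was not called in PAP without mouse 7 (adjusted p = 0.0704) or mouse 8 (0.0557), nor in SCC without mouse 3 (0.157), 7 (0.0546), 8 (0.0676) or 9 (0.0682). Fancb, Fance, Fancg and Fancl, the last of which is the ligase subunit itself, passed in neither comparison. Their log2 fold changes in PAP were 0.25, 0.19, -0.22 and 0.22.

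Fancc (chr13:63285043-63497278, minus strand) was the only gene that limma called lower, in SCC, although 8 of the 40 values were negative there. Fancg was further below 0 in SCC, at -0.27, but did not pass. The lowest, median and highest libraries of Fancc were 159, 183 and 199 in CHR, 132, 150 and 188 in PAP and 107, 147 and 162 in SCC. For Fancc, SCC was lower than CHR in 6 of 6 mice, though the ranges of the groups touched. The log2 fold change in SCC was -0.25 ± 0.09 (adjusted p = 0.0445), and in PAP it was -0.17 ± 0.09 (adjusted p = 0.144). The SCC call was lost with mouse as a block (adjusted p = 0.057), with limma-voom (0.131), and on leaving out mouse 2 (0.0939), 3 (0.0598), 8 (0.107), 9 (0.16) or 10 (0.0751). Of the annotated exon bases of Fancc, 18.6% overlap genes on the other strand.

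The core's substrate rose as a pair. Fancd2 (chr6:113531682-113597017, plus strand) had 209, 239 and 249 reads in the lowest, median and highest CHR libraries. It had 437, 545 and 952 in PAP and 352, 514 and 685 in SCC. The highest CHR library lay below every lesion. Its log2 fold change was 1.18 ± 0.16 in PAP (adjusted p = 1.23e-05) and 0.92 ± 0.16 in SCC (adjusted p = 0.000334). Fanci (chr7:79391929-79450264, plus strand) ran from 176 through 198 to 264 in CHR, from 485 through 549 to 680 in PAP, and from 323 through 413 to 571 in SCC. It too separated both lesions from CHR, at 1.17 ± 0.12 in PAP (adjusted p = 8.12e-07) and 0.82 ± 0.12 in SCC (adjusted p = 8.02e-05). Exons of Fanci share 16.0% of their bases with Polg on the other strand.

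**Figure D2:**
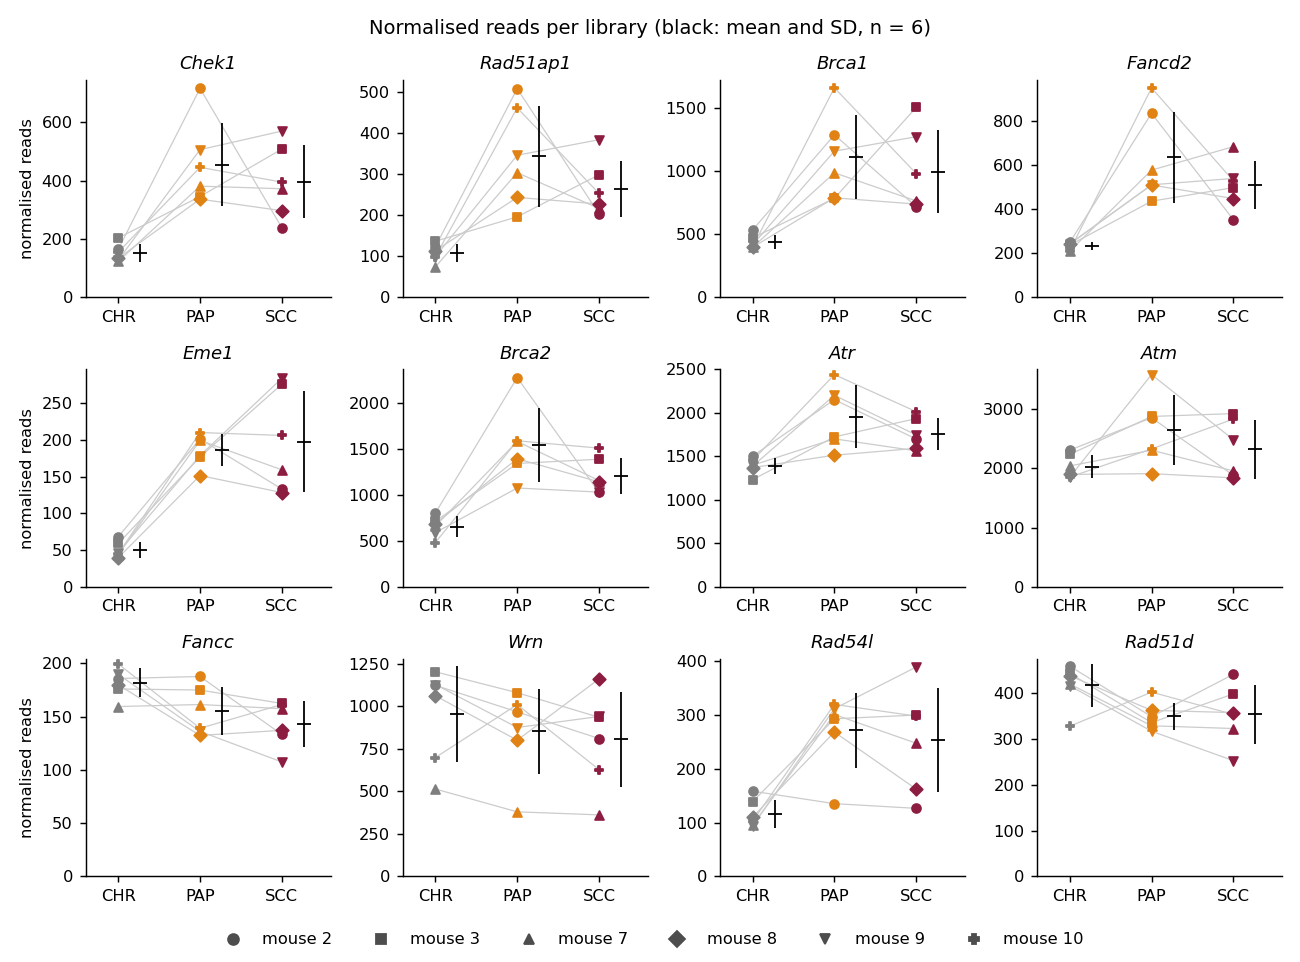
Normalised reads of 12 genes in each of the 18 libraries (symbols mark the mouse, grey lines join samples of the same mouse, black bars show mean and SD, n = 6 per group). Chek1, Rad51ap1, Brca1, Fancd2, Eme1, Brca2 and Atr had every lesion library above CHR, Fancc drifted down, and Wrn was lowest in mouse 7 in all 3 tissues.

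Among the helicases, Blm and Brip1 rose and Wrn and Rmi1 did not pass. Blm, which unwinds recombination intermediates, rose by 1.12 in PAP (adjusted p = 6.68e-05) and 1.08 in SCC (adjusted p = 0.000237). Brip1, a helicase that binds BRCA1, rose by 0.87 and 0.83. Rmi1, a partner of BLM in dissolving crossed strands, had -0.09 in PAP (adjusted p = 0.407) and -0.02 in SCC (adjusted p = 0.867), at 46.3 ± 8.73 reads in PAP and 52.5 ± 7.68 in CHR (SD, n = 6). Wrn, a RecQ helicase with an exonuclease, had -0.16 and -0.24, with the widest confidence interval of the set in PAP (-0.72 to 0.40).

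All 5 resection genes rose in PAP and 2 of 5, Exo1 and Mre11a, in SCC. The nuclease gene Exo1 rose by 1.02 in PAP and 1.12 in SCC, with an adjusted p of 0.000165 in each. Rad50 rose by 0.53 (adjusted p = 0.000894), Rbbp8, which starts resection with MRE11, by 0.62 (adjusted p = 0.0018), and Mre11a by 0.49 (adjusted p = 0.0046) in PAP. In SCC the values were 0.23 for Rad50 (adjusted p = 0.115), 0.35 for Rbbp8 (adjusted p = 0.0667) and 0.35 for Mre11a (adjusted p = 0.0438). With mouse as a block, Rbbp8 was called in SCC (adjusted p = 0.0435). The SCC call of Mre11a was lost without mouse 3 (adjusted p = 0.108), 7 (0.0886), 8 (0.0558), 9 (0.125) or 10 (0.0841). Nbn, the third subunit of the MRE11 complex, was 0.33 in PAP at the edge of the threshold (adjusted p = 0.0487). It was lost with limma-voom (0.0585) and without mouse 2 (0.108), 3 (0.151), 7 (0.0837), 8 (0.0676) or 10 (0.053), although all 6 PAP libraries were above every CHR library.

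Of the checkpoint kinases, which signal the presence of damaged or stalled DNA, 3 of 4 rose. Chek1 (chr9:36708482-36727065, minus strand) had 123, 144 and 203 reads in the lowest, median and highest CHR libraries. It had 336, 413 and 717 in PAP and 239, 384 and 570 in SCC, so both lesions stood clear of CHR. Its log2 fold change was 1.22 ± 0.18 in PAP, the largest rise of the 40 on this scale (adjusted p = 2.79e-05), and 1.05 ± 0.18 in SCC (adjusted p = 0.000293). Chek2, the target of ATM, rose by 0.98 in PAP and 0.74 in SCC.

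Atr (chr9:95857597-95951781, plus strand), the kinase that senses stalled forks, ran from 1232 through 1393 to 1503 in CHR, from 1514 through 1939 to 2440 in PAP, and from 1564 through 1723 to 2014 in SCC. The gap between CHR and the lesions was narrow but complete. Its log2 fold change was 0.45 ± 0.11 in PAP (adjusted p = 0.00272) and 0.32 ± 0.11 in SCC (adjusted p = 0.0332), and the SCC call was lost without mouse 3 (0.137), 9 (0.0776) or 10 (0.0601). Atm (chr9:53439149-53536740, minus strand), which senses broken ends, ran from 1853 through 1970 to 2308 in CHR, from 1912 through 2592 to 3585 in PAP, and from 1841 through 2221 to 2926 in SCC. The groups overlapped. Atm was higher in PAP in 6 of 6 mice but did not pass, at 0.35 ± 0.15 (adjusted p = 0.0615). With mouse as a block it passed (adjusted p = 0.047), as it did without mouse 8 (0.0406), but not with voom and the block together. Over all alternatives its adjusted p ran from 0.0373 to 0.237.

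Eme1, which with Mus81 forms a nuclease that cuts joined or stalled structures, had the largest rise of the set in mean reads. Its lowest, median and highest libraries were 39.6, 45.7 and 68.1 in CHR, 152, 189 and 210 in PAP, and 128, 183 and 284 in SCC. Every lesion was above every CHR library, and the SCC libraries were the more spread out. The log2 fold change was 1.16 ± 0.14 in PAP (adjusted p = 3.76e-06) and 1.19 ± 0.14 in SCC (adjusted p = 1e-05), and the ratio of mean reads was 3.70 and 3.93. Mus81 rose by 0.33 in PAP (adjusted p = 0.00426) and had 0.21 in SCC (adjusted p = 0.07). Slx4, a scaffold for such nucleases, passed in neither.

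Expressed per kilobase of exon, the levels in CHR ran from 7.09 ± 1.12 (Ube2t) and 7.99 ± 1.17 (Rmi1) to 243 ± 8.24 (Rad50) and 294 ± 9.63 normalised reads (Nbn; SD, n = 6). Nbn, Rad50, Atm and Mre11a were ranked 1 to 4 in each of the 3 groups. Wrn went from rank 5 in CHR to 11 in PAP and 10 in SCC, and Brca1 from rank 17 to 8 and 7. These orders are descriptions and rest on lengths that join all annotated exons of a gene, such as 23629 bases for Atr. Such a length can exceed that of the transcript present, which lowers the level per kilobase. It also shifts the size of a ratio between genes, though not its change between groups.

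Partners of a complex were also set against each other within each mouse, as the ratio of their reads per kilobase. For 12 pairs in 3 comparisons this made 36 exact two-sided sign-flip permutation tests. On log2(deposited value + 1), 14 reached 0.03125, the smallest p that 6 mice allow, and the smallest adjusted p was 0.0804. On log2(normalised reads + 1), 13 reached it and the smallest adjusted p was 0.0865, so on neither scale did a pair pass (0 with adjusted p under 0.05). With 36 tests and this smallest p, a pair could pass only if many more tests reached it, however large its own change. The lack of a pass therefore says nothing about any single pair. The pairs were chosen with earlier results known, and the ratio of Eme1 to Mus81 was 0.199 ± 0.0496 for CHR, 0.558 ± 0.0651 for PAP and 0.654 ± 0.232 for SCC (SD, n = 6). Its ranges in the lesions, 0.458 to 0.656 and 0.399 to 0.974, did not meet that of CHR, 0.147 to 0.286.

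Rad51d to Xrcc2, subunits of the same complex, went the other way, from 3.96 ± 0.642 in CHR to 1.68 ± 0.538 in PAP and 1.81 ± 0.446 in SCC. It was lower in 6 of 6 mice in each lesion. Chek1 to Atr was 0.559 ± 0.145 for CHR, 1.18 ± 0.268 for PAP and 1.15 ± 0.333 for SCC, higher in 6 of 6 mice in each lesion. Blm to Rmi1 was 4.64 ± 1.32, 13.3 ± 4.81 and 11.6 ± 4.91, also with 6 of 6 in each on the deposited scale, though 5 of 6 in PAP on plain reads (exact p = 0.0625).

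Chek2 to Atm went from 0.432 ± 0.0289 in CHR to 0.778 ± 0.173 in PAP and 0.722 ± 0.116 in SCC, and Ube2t to Fancl from 0.156 ± 0.0351 to 0.314 ± 0.0738 and 0.342 ± 0.102, each in 6 of 6 mice on plain reads. On the deposited scale Chek2 to Atm was higher in PAP in 5 of 6 (exact p = 0.0625).

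In 3 of the remaining pairs, the ratio moved by less than the spread between mice (p on log2(normalised reads + 1), PAP against CHR). Brca1 to Bard1 was 1.64 ± 0.151, 1.76 ± 0.418 and 1.88 ± 0.507 in CHR, PAP and SCC and was higher in PAP in 3 of 6 mice. Fancd2 to Fanci was 0.820 ± 0.101, 0.837 ± 0.275 and 0.888 ± 0.228 (exact permutation p = 1). Rad50 to Mre11a was 1.64 ± 0.0977, 1.70 ± 0.364 and 1.51 ± 0.208 (exact permutation p = 0.875). A p that misses the threshold does not show that the ratio was equal. Brca2 to Palb2 and Rad51b to Rad51c were lower in SCC than in PAP in 6 of 6 mice on both scales. Brca2 to Palb2 was higher in PAP than in CHR in 6 of 6 on the deposited scale and 5 of 6 on plain reads. Nbn to Mre11a was higher in PAP than in CHR in 2 of 6.

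**Figure D3:**
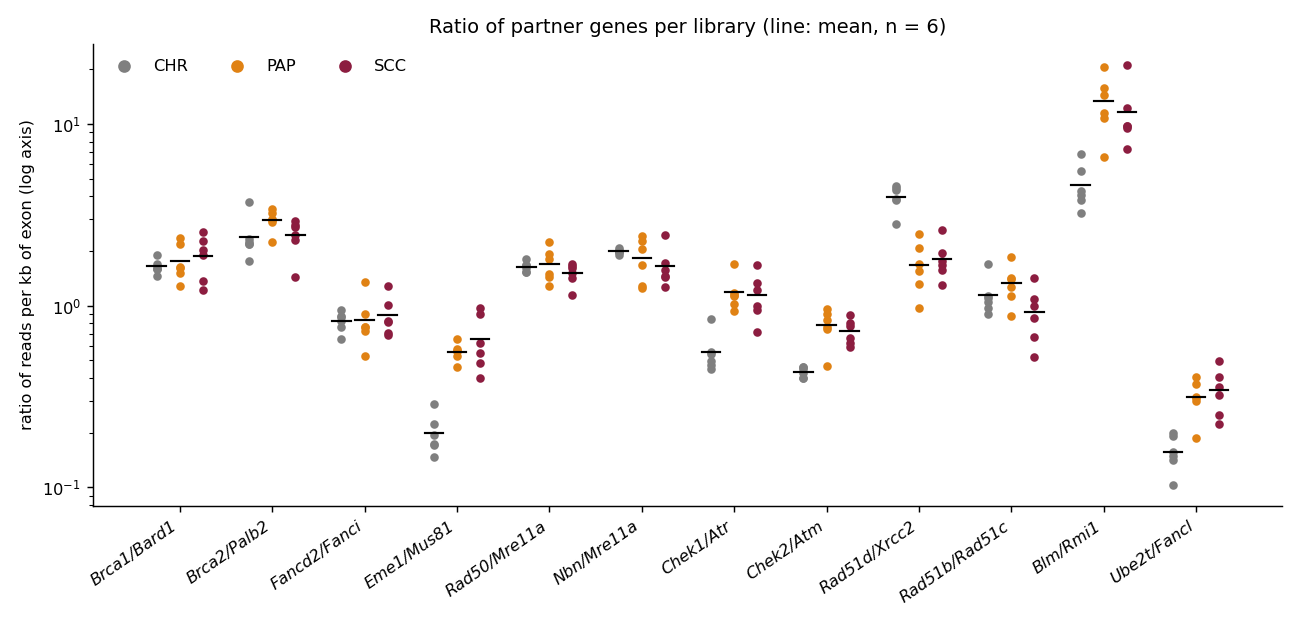
Ratio of reads per kilobase of exon for 12 pairs of partner genes in each library, with a bar at the mean of 6 (log axis). Eme1 to Mus81 rose from 0.199 in CHR to 0.558 in PAP, Rad51d to Xrcc2 fell from 3.96 to 1.68, and Brca1 to Bard1, at 1.64 and 1.76, stayed within its spread.

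The last comparison asks whether carcinoma differed from papilloma. Of 40 genes, 0 were called higher and 0 lower in SCC than in PAP, where 4.99% of all genes were higher and 0.592% lower, 5.58% in either direction. At an unadjusted p under 0.05 there were 2, Fanci and Rad50, beside 22.6% of all genes. limma-voom called 0 of the 40, but also 0 of all genes. The 810 calls over all genes depended on the processing: they were 0 with limma-voom, with upper-quartile scaling, with only the 2 groups compared and without mouse 3, 7 or 8, 1430 with mouse as a block and 2123 without mouse 10. The 2 lowest adjusted p-values were 0.0983 for Fanci, with a log2 fold change of -0.35 (95% confidence interval -0.60 to -0.09), and 0.13 for Rad50, with -0.29 (-0.53 to -0.05). Neither passed. In Rad50 the SCC libraries ran from 1251 through 1534 to 1927 and the PAP libraries from 1620 through 1851 to 2373. The difference had a negative sign in 33 of the 40 genes, beside 52.9% of all genes, with a median of -0.12 beside -0.02 over all genes. In the same comparison all 8 keratinocyte markers were negative (3 called lower), as were all 10 proliferation markers (1 called lower, Mki67, named after its values were seen), while 7 of 8 muscle and 3 of 6 myeloid markers were called higher, and their part in this lean was not tested. Every SCC library was above, or every one below, PAP in 0 of 40 genes, where 0.255% and 0.158% of all genes were so.

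**Figure D4:**
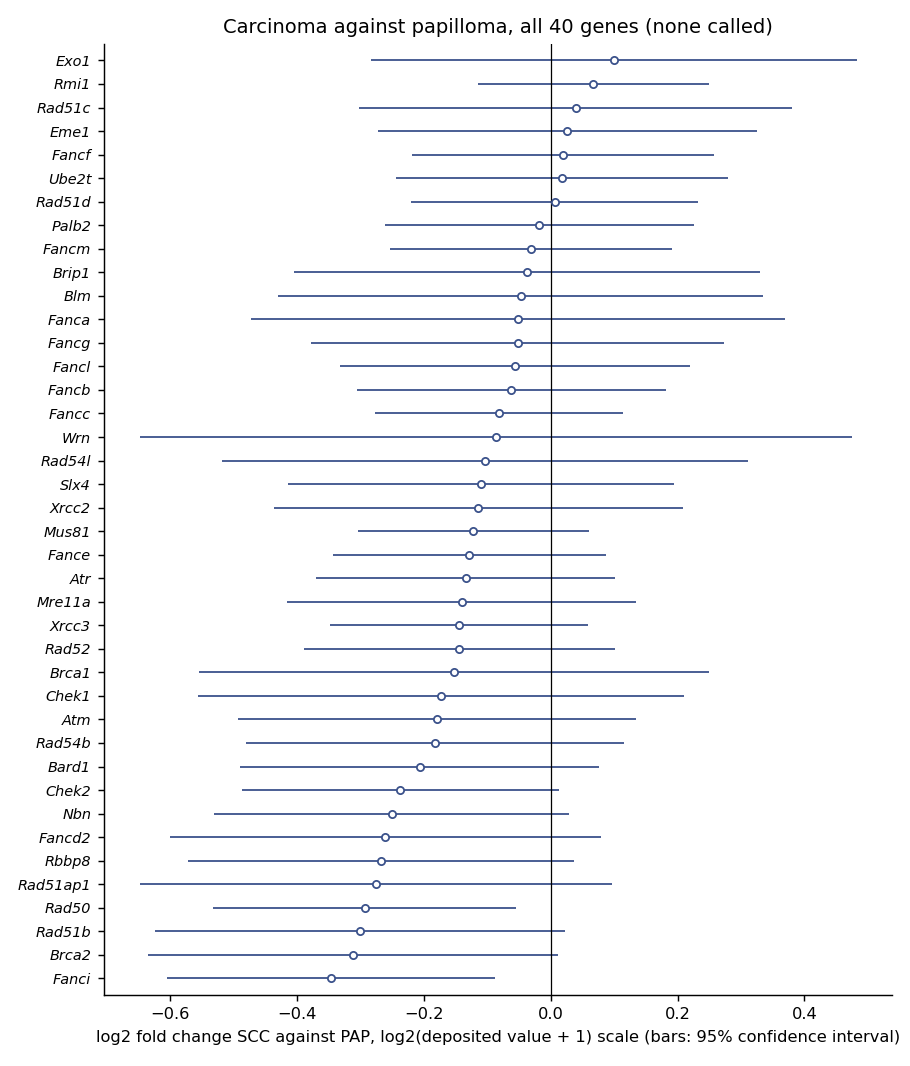
Log2 fold change of SCC against PAP on the log2(deposited value + 1) scale for all 40 genes, in order of size, with 95% confidence intervals (n = 6 per group). Most intervals hold 0, and the 2 that do not, Fanci (-0.35) and Rad50 (-0.29), have adjusted p of 0.0983 and 0.13.

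Under the progression model of the study, a mixed model with mouse as random effect and unadjusted p under 0.05, 28 of 40 genes were early, that is, different from CHR in SCC and also in PAP, in the same direction. Among all genes 41.1% were early. Rad51d was early in the lower direction, the other 27 in the higher. Of the 40, 0 were late (different from CHR and from PAP in SCC, but not in PAP from CHR; 2.2% of all genes) and 0 were stepwise (different in all 3 comparisons; 0.523%). Xrcc3 and Fancc differed between SCC and CHR only, as did 4.58% of all genes.

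The repair genes were then set beside 10 proliferation markers, since they are used most in dividing cells. All 10 were higher in PAP and in SCC than in CHR. Within a mouse the summed reads of the 40 genes were 1.57 ± 0.178 times higher in PAP than in CHR (SD, n = 6, range 1.34 to 1.85) and 1.39 ± 0.200 times in SCC (range 1.11 to 1.60). The summed proliferation markers were 3.25 ± 0.693 and 2.44 ± 0.593 times higher. SCC over PAP was 0.892 ± 0.146 for the repair genes and 0.781 ± 0.265 for the markers. The log2 ratio of the 40 genes to the markers was 0.61 ± 0.13 for CHR, -0.42 ± 0.12 for PAP and -0.18 ± 0.19 for SCC (SD, n = 6), and neither lesion reached the range of CHR, which was 0.40 to 0.79. These sums are weighted towards genes of many reads and do not give the change of a typical gene. In CHR, Mki67 and Top2a held 4808 and 3198 of the 10438 mean marker reads, and Atm 2032 of the 15863 repair gene reads. Gene by gene, the median log2 fold change in PAP was 0.572 for the 40 genes and 1.502 for the markers. That scale compresses genes of few reads. The part of dividing cells in the rise of the repair genes was not tested.

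**Figure D5:**
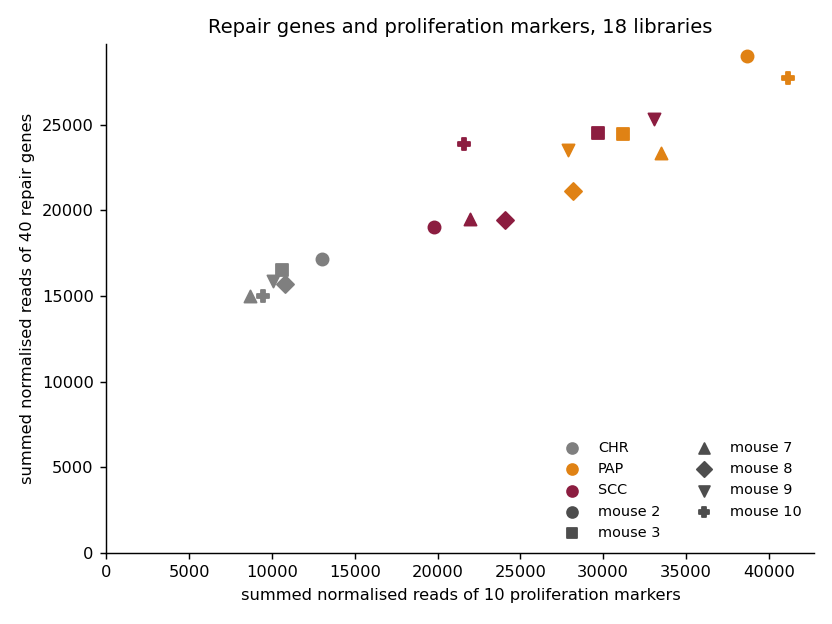
Summed normalised reads of the 40 repair genes against those of 10 proliferation markers in 18 libraries (colour is the tissue, symbol the mouse, both axes from 0). CHR lies at the lower left with sums of 14968 to 17124 repair gene reads, PAP at 21106 to 29005, and SCC between and among them at 19030 to 25312.

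Of 61 other genes of the same pathways, 38 were higher in PAP than in CHR and 0 were lower, beside 22.8% and 28.7% of all genes. At an unadjusted p under 0.05, 43 differed, beside 57.2% of all genes. limma-voom called 37 higher and 0 lower, beside 22.1% and 28.3% of all genes. In SCC 29 were higher than in CHR, beside 15.1% of all genes. Between SCC and PAP 0 were called by limma, beside 5.58% of all genes in either direction. At an unadjusted p under 0.05 there were 5, beside 22.6% of all genes. The largest rises in PAP were H2afx, the histone variant phosphorylated at breaks (1.62, from 474 to 1707 mean reads), Sfr1, a recombination factor (1.61), Parpbp, which restrains recombination (1.36), and Gen1, a resolvase of crossed strands (1.28).

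End joining rejoins broken ends without a template. Of 12 such genes, 4 were higher in PAP than in CHR (Xrcc5, Aplf, Prkdc and Lig4) and 1 was lower, beside 22.8% and 28.7% of all genes. Xrcc5, which encodes the Ku80 end binder, rose by 0.87, Aplf by 0.64, Prkdc, the end-joining kinase, by 0.45 and Lig4, the ligase, by 0.43. Lig4 was named after its values were seen, to complete the count. Dclre1c, the nuclease Artemis, had a log2 fold change of -0.97 in PAP (adjusted p = 1.8e-06) and -0.79 in SCC (adjusted p = 4.28e-05), with 997 ± 124 reads in CHR, 471 ± 35.5 in PAP and 550 ± 105 in SCC (SD, n = 6). Between SCC and PAP limma called 0 of 12, beside 5.58% of all genes in either direction. At an unadjusted p under 0.05 there was 1, beside 22.6% of all genes.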

How the data were processed

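The authors aligned the mouse reads to mm10 and counted them with HTSeq. The methods name MOSAIK for the human reads and no aligner for the mouse reads. The counts were scaled by size factors and deposited as a variance-stabilised score per gene, rounded to whole numbers. These scores are not counts. The methods also name a correction that scales batch medians per gene, and whether this table had it is not stated. The annotation release, the version of the counter and the counting strand were not given in the sources used here. Of 14542 entries, 21 had numbers in place of symbols (at most 0.236% of a library total) and were left out. No value column was unmapped (0). Groups and mouse numbers came from the sample titles. Reads were recovered by inverting the parametric transformation, with 39.13 as the fitted value of 0 reads and size factors of 0.835 to 1.18. For 98.1% of values, and 100% of those under 100, the nearest whole number of reads gave the deposited value back exactly after transformation and rounding. Levels are inverted values, that is, reads over the size factor, per kilobase of GENCODE M21 exons where stated.

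As the values are not raw counts, the test was limma 3.58.1 (R 4.3.3) on log2(score + 1), all 18 libraries, no covariate, two-sided, Benjamini-Hochberg over 14521 genes, threshold 0.05. Progression classes came from a closed-form mixed model on log2(score), checked against nlme 3.1.168, and exact tests from Python 3.11.15. Fold changes on that scale understate changes of low genes. limma-voom on recovered reads, other scalings, no pseudocount or 10, filters at 10 reads in every library and a mean of 50 reads, a block by mouse and each mouse left out were alternatives. The fits were tested on simulated data.

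Same-numbered samples come from the same mouse; their deviations from the group means correlated above 0.1 in 9 of 18 pairs (median 0.10, range -0.245 to 0.507), against 24 of 90 pairs of different mice. Since the libraries are separate tissues of the same 6 animals, p-values without the block take them as independent. All 40 genes had at least 10 reads in every library; 19 share exon bases with another gene, 8 of them at least 10% (Rad54b, Fancc, Fanci, Rad54l, Fancf, Fancl, Eme1 and Fanca), and without a stated strand the shared reads cannot be told apart (Rad54b shares its bases with Fsbp on the same strand). The 40 genes, the other lists, the pairs and the tests were chosen with earlier results of these data known. The lowest, median and highest libraries were given for the 6 largest rises in PAP, called falls, and Brca1, Brca2, Fancd2, Atm, Atr and Chek1. They were also given for the 2 lowest p-values in SCC against PAP, for Rad50 in these 2 groups only. Of other lists up to 4 largest changes are named, and promoters were printed for the largest 2 rises and called falls.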

Additional observations from a re-analysis of the deposited data

Results flagged for a closer look

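Each of the 40 genes was examined in each group of 6 libraries for a library standing apart from the other 5, which makes 120 groups. By chance about 1 in 20 groups, here 6, would be picked out, and 8 were. In PAP of mouse 2, Palb2 was the highest at 359.3 normalised reads (the others 250 to 287), while Rad54l was the lowest at 135.2 (others 268 to 320) and so was Xrcc3 at 63.5 (others 96.0 to 110). Mouse 2 also had the lowest Fancg in SCC, 104.5 (others 218 to 314), and the lowest Slx4 in CHR, 367.2 (others 524 to 626). Mouse 7 had the lowest Bard1 in SCC, 223.9 (others 342 to 419), and the lowest Wrn in PAP, 380.1 (others 801 to 1081). Mouse 10 had the lowest Rad51d in CHR, 327.5 (others 416 to 459).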

How the results depend on the processing

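Of 2160 settings tried for single genes and comparisons, 2092 kept their side of the threshold with no called value reversed, 38 lost a call, 28 gained 1 and 2 reversed. In 66 of the 2092 an uncalled value near 0 changed sign. The count of genes higher in PAP than in CHR was 28, and 27 to 34 under other processing (34 with quantile normalization). The count higher in SCC than in CHR was 23, and 22 to 28. Leaving out mice gave 25 to 29 and 19 to 23. With mouse as a replicate block the counts were 29 and 24, the gains being Atm in PAP and Rbbp8 in SCC, and among the 40 genes it changed no other call but that of Fancc. Fancc, the 1 gene lower in SCC than in CHR, left a count of 0 under limma-voom, upper-quartile scaling, quantile normalization, the block, voom with the block, a trended robust prior and the study's looser cutoff (adjusted p under 0.25 with a minimum fold), and 0 to 1 without a mouse. Genes lower in PAP than in CHR were 0 to 1 without a mouse, the 1 being Rad51d without mouse 10. Under the study's cutoff 1 gene, Fanci, was lower in SCC than in PAP. Of the other pathway genes 1, Zswim7, named after its values were seen, was lower in PAP with the block and with only the 2 groups compared (1 in each). The median log2 fold change in PAP was 0.57, and 0.76 with voom, 0.80 with upper-quartile scaling, 0.91 with quantile normalization and 0.76 with voom and the block. In SCC it was 0.39, and 0.68, 0.68, 0.61 and 0.67. Quantile normalization moved the median of all genes to 0.16 in PAP and 0.10 in SCC and raised the share of calls that were higher from 44.3% to 62.4% in PAP and from 41.4% to 57.4% in SCC; a filter of 10 reads in every library gave 54.6% in PAP. Under quantile normalization Rmi1 (0.43, adjusted p = 0.0047) and Xrcc3 (0.44, adjusted p = 0.00568) reversed in PAP, where their values had been -0.09 and -0.04. Voom values are on plain reads, which the deposited scale compresses. The causes of the other changes were not tested. Genes of few reads, such as Ube2t, Rad51b and Rad51c, have the least depth behind them.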

Other observations

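The median coefficient of variation of the 40 genes came to 12.7% for CHR, 21.6% for PAP and 21.1% for SCC, with no test made of the difference. A test for a level that differs between mice over all 3 tissues, added after the values were seen, passed in 6 of 14521 genes and in 0 of the 40 (limma F-test, adjusted p under 0.05). At an unadjusted p under 0.05 it was 1533 genes, 10.6% of all, and 1 of the 40, Wrn, whose RecQ helicase is lost in a human premature ageing syndrome. Wrn had 514, 380 and 362 normalised reads in CHR, PAP and SCC of mouse 7, while the other mice had 700 to 1204 in CHR, 801 to 1081 in PAP and 629 to 1162 in SCC (unadjusted p = 0.000151, adjusted p = 0.169, limma F-test).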
